A study of Rattus norvegicus with 18 samples.

Results

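Methylated RNA immunoprecipitation sequencing (MeRIP-seq) of H9c2 cells yielded 405 N6-methyladenosine (m6A) sites that were called in at least 2 of 3 Model lists and at least 2 of 3 Control lists and in none of the 3 SYD lists. They lay in 375 genes and made up 4.49% of the 9022 sites obtained when overlapping peaks of the 9 deposited lists were merged. Of the 2778 sites held by at least 2 Model and 2 Control lists, the members were 14.6%. H9c2 cells come from the heart of a rat embryo. The members were thus chosen by the presence of called peaks in the 9 lists. The SYD group received 2 mg/mL SYD (Shen-Yuan-Dan, a preparation of several plant and animal materials) together with 50 μM phenylephrine. Phenylephrine activates α1-adrenergic receptors and drives the growth of cardiac myocytes. The Model group received 50 μM phenylephrine alone and the Control group neither agent, with 24 h of treatment, wild type cells throughout and 3 replicates per group. The sample labels and the methods give the SYD dose as 2 mg/mL, whereas the series text has 1 mg/mL. Nothing states that the replicates were separate cultures, so their spread may be technical.

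In mammalian mRNA, m6A is written by a complex of METTL3 and METTL14 with WTAP and can be removed by FTO and ALKBH5. Proteins of the YTH family read the mark and act on the splicing, translation and decay of the marked transcript. MeRIP-seq breaks RNA into fragments, captures fragments bound by an antibody against m6A (IP) and sets their reads against those of uncaptured fragments (input). A transcript can carry several sites, often in long internal exons and near the stop codon, and one site can be present while its neighbour is not.

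Each listed peak carries the authors' score, which is its negative log10 p multiplied by 10 and was at least 20 throughout, and its fold enrichment of IP over input. A peak that is missing from a list fell short of the calling threshold, and its score there is unknown. The lists hold no depth and no RNA level, so less m6A at a site and less of its transcript cannot be told apart. The 3 SYD lists were also the shortest of the 9, with 2508, 2691 and 2786 peaks, against 4476, 2883 and 4187 in the Model lists and 5556, 3629 and 4245 in the Control lists. Their lowest folds were 10.5, 7.91 and 9.53 in SYD, against 4.21, 4.11 and 4.01 in Model and 2.72, 3.36 and 3.73 in Control. The part of these differences between lists in the absence of the members was not tested. The labels call the cells cardiomyocytes, and 5 of 18 cardiomyocyte markers had a peak in any list (Tnnt2, Nkx2-5, Hand2, Gata4 and Mef2c), none of them at a member. Gata4 and Mef2c had a peak in 1 list each, so they could not be members. Among 33 markers of other cell types, Ncam1, Krt8 and Cspg4 had a peak. None had a site in at least 2 Model and 2 Control lists, so none could be a member.

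The same rule with the groups exchanged selected fewer sites. Of the 2010 sites held by at least 2 SYD and 2 Control lists, 38 (1.89%) were missing from every Model list, and of the 1957 sites held by at least 2 SYD and 2 Model lists, 23 (1.18%) were missing from every Control list. When each list was cut to its 2508 highest scores, so that all were as long as the shortest SYD list, 87 sites were missing from SYD, of which 76 were among the 405. At that length 47 sites were missing from Model and 52 from Control. The number missing from SYD fell from 405 to 87 with equal list lengths, beyond a margin of 1.5 times, while the other counts rose. Leaving out 1 list moved it past the same margin for Model replicate 1 (162 sites), Model replicate 3 (166), Control replicate 1 (181), Control replicate 3 (238) and SYD replicate 3 (617).

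**Figure D1:**
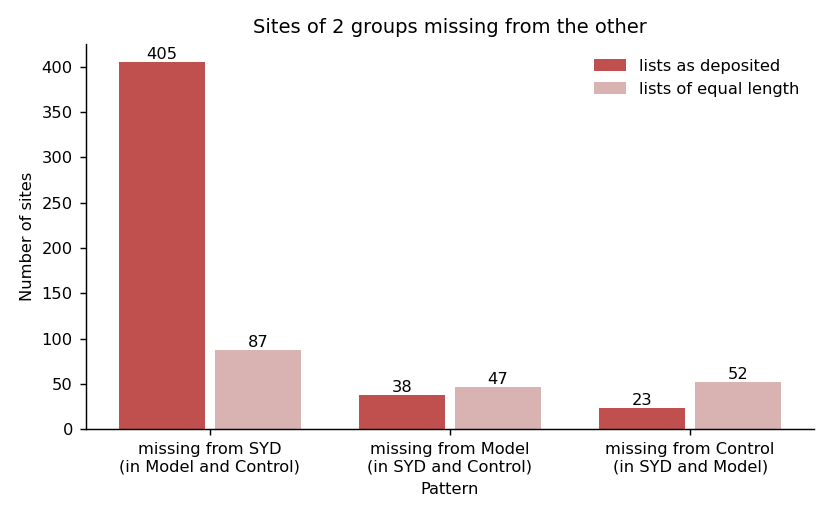
Number of sites (vertical axis) held by at least 2 lists of each of 2 groups and by no list of the remaining group, for the lists as deposited (dark bars) and for lists cut to 2508 peaks (light bars). With the deposited lists 405 sites were missing from SYD, 38 from Model and 23 from Control, and the lists cut to equal length gave 87, 47 and 52.

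Within the lists that held them, the members were mostly weak peaks. Their median score per list was 43.5, 37.5 and 38.4 in the Model lists and 61.8, 36.5 and 43.9 in the Control lists, where the best peak of any member reached 1346. As a percentile within each list, at which 100 is the highest score, the median member stood at 40.7, 36.6 and 36.8 in Model and at 49.3, 34.9 and 40.2 in Control. The 1829 sites that at least 2 lists of each group held stood at 75.7, 69.7 and 75.7 in Model and 79.6, 73.4 and 75.4 in Control. These scores come from lists the rule used and are given without a test.

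Sites held by more SYD lists ranked higher in Model and Control, step by step. The median percentile was 41.3 for the 405 sites of no SYD list, 50.2 for the 544 sites (19.6%) of 1 SYD list, 59.5 for the 648 of 2 and 81.1 for the 1181 of 3. The median score over the same classes was 45.5, 56.1, 72.6 and 159.9. The share present in all 6 Model and Control lists was 13.6%, 24.6%, 49.1% and 77.6%. Where 1 SYD list held a site, its SYD score had a median of 33.2, not far above the threshold of 20. When the 2778 sites were split by their Model and Control percentile into 5 classes of like size, from the weakest upwards, members were 37.1%, 22.5%, 9.71%, 2.70% and 0.899% of the sites. The strongest class held 5 members and the weakest 206.

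**Figure D2:**
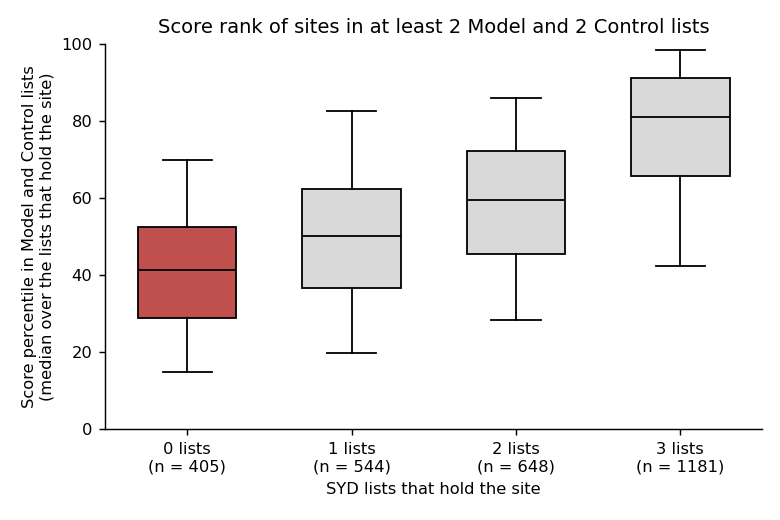
Score percentile of each site in the Model and Control lists (vertical axis, median over the lists that hold it) by the number of SYD lists with the site, for the 2778 sites of at least 2 Model and 2 Control lists. Boxes span the quartiles with the median as a line and whiskers leave out 5% of sites at each end, and the medians are 41.3, 50.2, 59.5 and 81.1 for 0, 1, 2 and 3 SYD lists.

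In number, the Model and Control folds of the members lay close to the lowest folds of the SYD lists, although SYD folds ran higher at shared sites. Their median fold was 9.06, and 297 of the 405 (73.3%) had a median fold under 10.5, the lowest fold in SYD replicate 1, against 627 (34.3%) of the 1829 sites shared by all groups. For 117 members the median fold lay under the lowest fold of every SYD list. Folds are scaled within each replicate, so a fold in one list need not equal the same enrichment in another. At the 1829 shared sites the median folds were 34.3, 23.7 and 34.7 in the SYD lists. Medians there were 14.8, 11.1 and 13.9 in Model and 10.3, 10.9 and 13.4 in Control. A member's Model or Control fold therefore does not give the fold it would have had in SYD. At the other end, 9 members had folds above 10.5 in every list that held them. They lay in RGD1560108, Lima1, Mex3b, LOC100911727, AABR07002775.1, Rwdd3, Clspn, Cd248 and Pawr, some of which are named here after their values were seen.

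**Figure D3:**
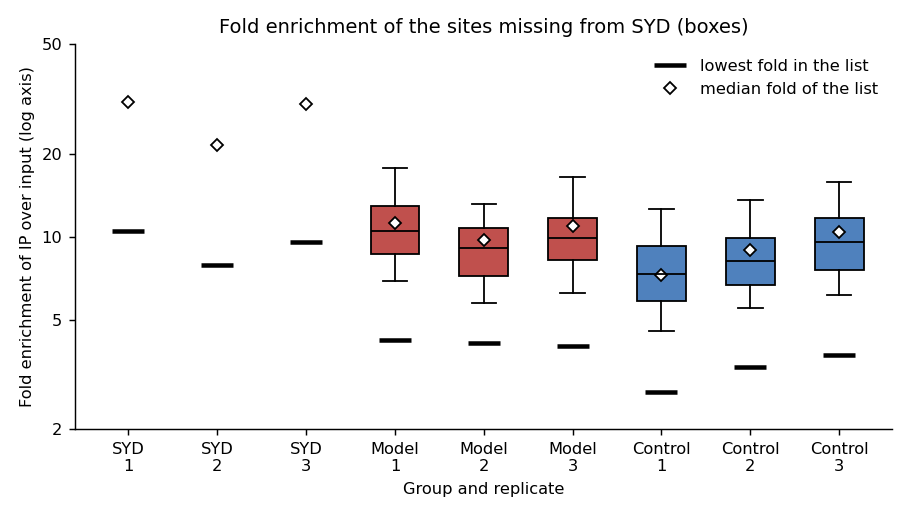
Fold enrichment of IP over input (log axis) of the members in each Model and Control list (boxes with quartiles and median, whiskers leaving out 5% of members at each end), with the lowest fold (bar) and median fold (diamond) of every list including SYD. The lowest folds of the SYD lists, 10.5, 7.91 and 9.53, lie near the members' medians of 9.06 to 10.5 in Model and 7.32 to 9.57 in Control. SYD folds ran higher than Model and Control folds at shared sites, so the scales differ.

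Presence among the 6 Model and Control lists was uneven. All 6 held 55 members, 3 Model and 2 Control lists held 55, 2 Model and 3 Control lists held 96, and 2 of each held 199. The shortest list of each group lacked members most often, with 187 missing from Model replicate 2 and 137 from Control replicate 2, and 75 from both. Just outside the rule stood 367 sites of 1 Model list and at least 2 Control lists, 219 of at least 2 Model lists and 1 Control list, and the 544 of 1 SYD list, with median percentiles of 29.8, 31.5 and 50.2. Inside it, the 199 members of 2 lists per group had a median percentile of 39.9 and the 55 of all 6 lists one of 49.5. The members were 28 to 4690 bases long with a median of 240, against 314 for the shared sites. Every list gave the same bounds for 300 members (74.1%), against 1504 (82.2%) of the shared sites.

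The 20 members with the highest lowest percentile among the 55 held by all 6 lists come next, of which 19 are named. Their scores are given in the order of replicates 1 to 3, and positions are in rn6, where transcript regions were not analysed here. Myh4, a myosin heavy chain of fast skeletal muscle, led them at chr10:53735041-53735166 with scores of 68.1, 73.5 and 185 in the Model lists and 239.6, 71.3 and 107 in the Control lists. The groups overlapped, and Myh4 belongs to a cluster of closely related myosin genes between which reads can be split. Of its 15 other sites only 6 had a peak in SYD, the nearest 717 bases from the member.

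Hdgf encodes hepatoma-derived growth factor, a heparin-binding nuclear protein, and its member at chr2:187282019-187282207 scored 216, 66.8 and 62.4 in the Model lists and 464, 224 and 255 in the Control lists. All 3 Model scores lay below all 3 Control scores at this site. Fam193a, whose only site was the member at chr14:81536819-81537049, scored 160.1, 90.5 and 134 in the Model lists and 74.2, 63.2 and 129 in the Control lists, with overlapping groups. Sh3glb1 (endophilin B1), which binds UVRAG and takes part in autophagosome formation, scored 80.6, 47.7 and 55.5 in the Model lists and 111, 97.3 and 79.0 in the Control lists at chr2:250743812-250744196. Its Model scores were mostly below its Control scores, with a narrow overlap of the groups. Another site of Sh3glb1 was in no SYD list either. These 4 and Sars were the only members held by all 6 lists whose rank lay within 2508 in each of them.

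Others among the 20 take part in chromatin regulation, translation and ribosome production. Phf21a, a reader of unmethylated histone H3 lysine tails in the LSD1 complex, scored 92.4, 39.5 and 58.6 in the Model lists and 149, 57.7 and 44.9 in the Control lists (chr3:81256696-81256794). Sars, the cytoplasmic seryl-tRNA synthetase, scored 53.1, 48.1 and 62.0 in the Model lists and 101, 36.7 and 55.6 in the Control lists (chr2:211235247-211235467). Esf1, whose yeast counterpart acts in ribosomal RNA processing, scored 85.8, 45.9 and 61.8 in the Model lists and 108, 56.4 and 34.9 in the Control lists (chr3:133225854-133226227). The groups overlapped in these genes, and the highest score of each came from Control replicate 1. Ddx27, a DEAD-box helicase of ribosome biogenesis, scored 86.1, 56.4 and 83.3 in the Model lists and 156, 80.6 and 32.9 in the Control lists (chr3:163772938-163773097), again highest in Control replicate 1 and lowest in Control replicate 3. Sars, Esf1 and Phf21a had no peak in any SYD list, and Ddx27 had 2 other sites that SYD lists held.

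Cytoskeletal and centriolar genes included Lasp1, an actin-binding LIM and SH3 protein of focal adhesions, with scores of 88.8, 47.3 and 42.8 in the Model lists and 51.3, 38.9 and 77.5 in the Control lists (chr10:85752102-85752196). Odf2, a component of the appendages of the mother centriole, scored 40.9, 73.4 and 57.7 in the Model lists and 38.0, 74.0 and 54.7 in the Control lists (chr3:8487133-8487295). Tprn, taperin of the base of hair cell stereocilia, scored 68.5, 95.4 and 38.3 in the Model lists and 54.4, 38.8 and 91.0 in the Control lists (chr3:2480232-2482100). In these 3 genes the Model and Control scores covered nearly the same range. Ccdc112, a coiled-coil protein, scored 131, 91.2 and 75.3 in the Model lists and 137, 36.2 and 39.1 in the Control lists (chr18:40224670-40225083), with every Model value above Control replicates 2 and 3. Arhgef12, an exchange factor that couples G12 and G13 proteins to RhoA, scored 27.1, 33.0 and 82.5 in the Model lists and 146, 112 and 29.9 in the Control lists (chr8:47393011-47393503). Its 6 scores spread widely within both groups. Itsn1, an endocytic scaffold, scored 30.1, 64.7 and 36.3 in the Model lists and 57.6, 29.8 and 34.5 in the Control lists in a site of 29 bases (chr11:31893489-31893517).

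Metabolic, ion transport and signaling genes made up the others. Ppargc1b encodes PGC-1β, a coactivator of mitochondrial energy metabolism, and scored 35.2, 32.6 and 84.3 in the Model lists and 154, 34.3 and 75.6 in the Control lists (chr18:56634742-56635543). Stk39, the SPAK kinase that acts on cation chloride cotransporters, scored 86.7, 37.6 and 53.3 in the Model lists and 185, 26.5 and 93.7 in the Control lists (chr3:54463321-54463443). Within both genes the scores of both groups spread widely and overlapped. Tnfaip3 encodes A20, a ubiquitin-editing inhibitor of NF-κB, and scored 53.3, 33.5 and 27.0 in the Model lists and 98.3, 38.9 and 57.8 in the Control lists (chr1:14402913-14403197), with no SYD peak anywhere in the gene. The RGD1306271 member scored 28.4, 49.2 and 72.0 in the Model lists and 32.3, 26.8 and 31.5 in the Control lists (chr4:65836351-65837474), with the Control scores close together. The RGD1305178 member scored 46.5, 27.2 and 49.5 in the Model lists and 102, 36.1 and 54.5 in the Control lists (chr3:9822046-9822186). Of the 20 genes, 10 had no SYD peak at all, 7 had only the member site, and 17 of the 20 sites kept the same bounds in every list.

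**Figure D4:**
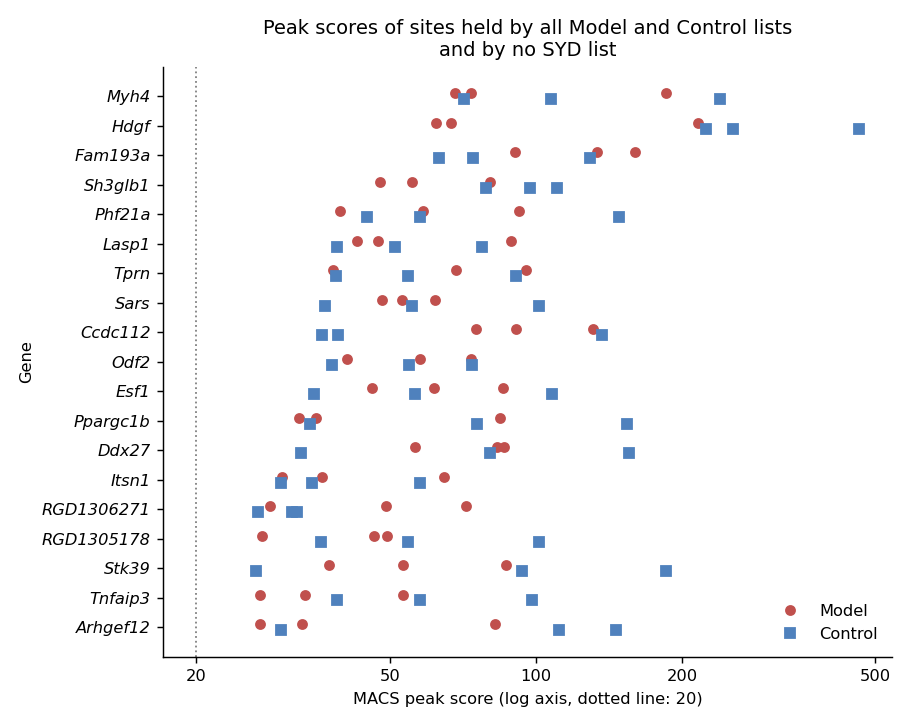
MACS peak scores (log axis) of 19 of these 20 members in the 3 Model lists (circles) and the 3 Control lists (squares), ordered by their lowest percentile with Myh4 at the top; the dotted line marks a score of 20. Model and Control points overlap in every gene but Hdgf, where Model scores of 62.4 to 216 lie below Control scores of 224 to 464.

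Few members ranked high enough to fall within the length of a SYD list. In 29 of the 405 the rank lay within 2508, the length of the shortest SYD list, in every list that held the site. The highest of these belonged to genes named after their values were seen. RGD1560108 scored 362 and 262 in Model replicates 1 and 2 and 255 and 601 in Control replicates 2 and 3 (chr1:222674125-222675967), and this was its only site. Fat1, an atypical cadherin, scored 116 and 182 in Model replicates 2 and 3 and 636 and 217 in Control replicates 1 and 2 (chr16:50379981-50380612). Hexim1, an inhibitor of the elongation factor P-TEFb, scored 582 and 70.6 in Model replicates 1 and 3 and 423 and 91.0 in Control replicates 1 and 3 (chr10:91200874-91202984). Each of these strong peaks was still absent from at least 1 Model and 1 Control list. Rai14, an actin-binding ankyrin repeat protein, scored 189 and 157 in Model replicates 1 and 3 and 174 and 117 in Control replicates 1 and 3, and Lima1 (EPLIN), an actin-bundling protein, scored 458 and 90.0 in Model replicates 1 and 3 and 1346 and 58.6 in Control replicates 1 and 3. The Lima1 value in Control replicate 1 was the highest of any member, and Lima1 had 3 further sites, none of them in SYD.

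Eif3d, a cap-binding subunit of the initiation factor eIF3, scored 114 and 107 in Model replicates 1 and 3 and 148, 85.7 and 189 in the Control lists (chr7:119196938-119197074). A SYD peak lay 1115 bases from it. Luc7l3, a splicing factor, scored 419 and 146 in Model replicates 1 and 3 and 267, 185 and 56.5 in the Control lists, and a SYD list held a peak 906 bases away. Tomm40, the channel of the mitochondrial outer membrane import complex, scored 61.9 and 63.5 in Model replicates 1 and 2 and 73.4 and 51.9 in Control replicates 1 and 2. Others of the 29 were Cep85l, Ralb, Cdyl2, Zc3h4, Lmo4, Snx21, Nav1 and Tmem2, each missing from at least 1 of the 6 lists. Lowest scores of 50 or more were found in 20 members.

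Most genes with a member had a single one (348 of 375), while 24 had 2 and 3 had 3. Clspn, which activates the replication checkpoint kinase CHK1, had 3. At chr5:144584382-144584809 the scores were 71.7 and 32.7 in Model replicates 1 and 3 and 93.2 and 56.2 in Control replicates 1 and 3. At chr5:144596691-144596882 they were 38.2 and 26.2 in Model replicates 1 and 3 and 36.9 and 20.5 in Control replicates 1 and 3. The third, at chr5:144598184-144598410, had scores of 33.1 and 26.1 in Model replicates 1 and 3 and 79.7 and 34.2 in Control replicates 1 and 3. Model replicate 2 and Control replicate 2 lacked all 3, and a SYD list held 1 of the 3 other Clspn sites. Cit, citron kinase of cytokinesis, also had 3, each missing from Model replicate 2. At chr12:46392700-46392874 the scores were 45.7 and 23.5 in Model replicates 1 and 3 and 85.0, 33.3 and 64.2 in the Control lists. At chr12:46394940-46395056 they were 51.9 and 26.6 in Model replicates 1 and 3 and 83.5, 50.9 and 30.5 in the Control lists. The third, at chr12:46402462-46402587, had scores of 24.8 and 47.6 in Model replicates 1 and 3 and 45.6 and 40.8 in Control replicates 1 and 2. Of the 9 other Cit sites, SYD lists held 5. Micall1, a protein of recycling endosomes, was the remaining gene with 3. At chr7:120358790-120359235 the scores were 43.9 and 59.6 in Model replicates 2 and 3 and 25.4 and 121 in Control replicates 1 and 3. At chr7:120367328-120367454 they were 29.1 and 22.3 in Model replicates 1 and 3 and 26.2, 63.1 and 30.1 in the Control lists. The third, at chr7:120369581-120369695, had scores of 34.6 and 28.4 in Model replicates 1 and 3 and 23.4, 58.7 and 25.6 in the Control lists. Its 3 other sites all had SYD peaks, and 2 of them were in all 9 lists.

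Crnkl1, of the spliceosome, was one of the genes with 2 members, and had both in its only sites. At chr3:140140014-140140166 the scores were 36.9 and 86.6 in Model replicates 1 and 2 and 63.3, 58.8 and 81.3 in the Control lists. At chr3:140141543-140141679 they were 54.6 and 39.7 in Model replicates 1 and 2 and 27.3, 31.1 and 30.4 in the Control lists. Cwc15, of the same machinery, had 2 other sites, and no SYD list held a peak in either gene. At chr8:12995492-12995625 the scores were 97.3 and 43.0 in Model replicates 1 and 2 and 177, 77.7 and 33.4 in the Control lists. At chr8:12998012-12998119 they were 84.6 and 54.4 in Model replicates 1 and 3 and 129 and 59.6 in Control replicates 1 and 2. Zrsr2, which recognises splice sites of minor introns, likewise had no SYD peak. At chrX:32308655-32308763 the scores were 92.2 and 36.3 in Model replicates 1 and 3 and 40.0 and 48.2 in Control replicates 1 and 3. At chrX:32309474-32309560 they were 69.2 and 41.0 in Model replicates 1 and 3 and 69.9 and 30.1 in Control replicates 1 and 2. Polr1a, the largest subunit of RNA polymerase I, had a SYD peak 531 bases from one of its members. At chr4:99880561-99880687 the scores were 43.1 and 21.2 in Model replicates 1 and 3 and 97.2 and 34.1 in Control replicates 1 and 2. At chr4:99881971-99882081 they were 28.3 and 28.2 in Model replicates 1 and 2 and 59.7 and 26.4 in Control replicates 1 and 2. Nop14, needed for the small ribosomal subunit, had 7 other sites, 4 of them in SYD. At chr14:81348362-81348493 the scores were 28.3 and 30.2 in Model replicates 1 and 3 and 24.0 and 38.7 in Control replicates 1 and 3. At chr14:81351086-81351216 they were 48.8 and 33.5 in Model replicates 2 and 3 and 38.7 and 51.9 in Control replicates 1 and 2. Rrp1, another nucleolar processing factor, had 4 other sites, of which SYD lists held 2. At chr20:10981998-10982189 the scores were 43.5 and 64.5 in Model replicates 1 and 2 and 42.5 and 23.3 in Control replicates 1 and 2. At chr20:10991656-10991772 they were 59.2, 22.1 and 72.1 in the Model lists and 79.0, 65.2 and 20.9 in the Control lists. Of the 6 genes only Cwc15 had a score above 100, in Control replicate 1.

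Structural and regulatory genes with 2 members included Actn1, an actin crosslinker of focal adhesions, which Model replicate 2 and Control replicate 2 lacked at both sites. At chr6:103381953-103382132 the scores were 30.4 and 88.0 in Model replicates 1 and 3 and 105 and 34.0 in Control replicates 1 and 3. At chr6:103383389-103383571 they were 164 and 57.9 in Model replicates 1 and 3 and 376 and 56.9 in Control replicates 1 and 3. Smc1a, a cohesin subunit, had 2 other sites, both with SYD peaks. At chrX:21720476-21720714 the scores were 59.9 and 68.7 in Model replicates 1 and 3 and 75.6 and 72.1 in Control replicates 2 and 3. At chrX:21729640-21729756 they were 59.1 and 30.8 in Model replicates 1 and 3 and 106 and 28.0 in Control replicates 1 and 2. Nucb2, a calcium-binding precursor of nesfatin-1, had its highest scores in replicate 1 of both groups. At chr1:185110732-185110902 the scores were 70.0 and 26.7 in Model replicates 1 and 3 and 107 and 34.8 in Control replicates 1 and 3. At chr1:185119049-185119234 they were 142, 36.5 and 26.4 in the Model lists and 269.7 and 41.6 in Control replicates 1 and 3. Smarcc1, a core subunit of SWI/SNF remodelers, had 5 other sites, of which SYD lists held 4. At chr8:118252201-118252238 the scores were 38.7, 32.3 and 25.6 in the Model lists and 80.3 and 27.1 in Control replicates 1 and 3. At chr8:118278743-118278857 they were 38.3 and 34.4 in Model replicates 1 and 3 and 43.8 and 30.7 in Control replicates 1 and 2. Mex3b, an RNA-binding protein, and Ahi1, of the ciliary transition zone, had no sites but their members. At chr1:144831523-144832111 the scores were 43.9 and 27.2 in Model replicates 1 and 2 and 29.3 and 49.3 in Control replicates 1 and 3. At chr1:144832947-144834529 they were 59.0 and 87.0 in Model replicates 1 and 3 and 116, 49.6 and 79.0 in the Control lists. For Ahi1 the scores were 78.1 and 91.4 in Model replicates 1 and 3 and 54.0, 35.3 and 41.5 in the Control lists at chr1:16478127-16478440, and 59.8, 20.9 and 20.1 in the Model lists and 22.4, 20.7 and 29.0 in the Control lists at chr1:16480950-16481119. The genes with 2 members also took in Ppfia1, Erc1, Lasp1, RGD1305178, Rdx, Rbm33, Ddx27, Igsf3, Taok3, Ddx19b and Sars.

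The other sites of these genes showed that a missing site often did not mean a gene missing from SYD. The member site was the only kind of site in 113 genes, and the other 262 genes held 779 further sites. In 177 of the 375 genes (47.2%) at least 1 SYD list held another site, in 113 at least 2 SYD lists did, and 57 had another site in all 9 lists. The remaining 198 (52.8%) had no SYD peak anywhere. Of all 1965 genes of the 2778 sites, the same 198 (10.1%) had none, since the rule makes any such gene a member gene. Where SYD lists held a peak in the gene, which was so for 199 members, the nearest lay a median of 4988 bases away. It was within 1000 bases for 26 members, among them Zfp628 (195 bases). Distances are along the genome and include introns.

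Some transcripts with several marked stretches show this, while 85 of the 262 genes with other sites had none of those sites in SYD. Col5a1, a fibrillar collagen chain, had 27 other sites, of which SYD lists held 22 and all 9 lists held 7. Its member scored 229.9, 46.8 and 74.5 in the Model lists and 167 and 42.3 in Control replicates 1 and 3, and the nearest SYD peak was 19392 bases away. Timp2, an inhibitor of matrix metalloproteinases, scored 43.1 and 92.1 in Model replicates 1 and 2 and 294, 67.8 and 94.0 in the Control lists at its member, while both of its other sites were in all 9 lists. Eif3a, a further eIF3 subunit, had 7 other sites, 5 of them in SYD, and scored 190.0 and 72.5 in Model replicates 1 and 3 and 339 and 23.9 in Control replicates 1 and 2 at its member. In each of these genes the SYD lists thus kept most of the other marked stretches.

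By function, members were counted in lists of genes beside all sites of those genes held by at least 2 Model and 2 Control lists. Over 20 lists together, 85 of 617 such sites (13.8%) were members, against 320 of 2161 (14.8%) outside the lists and 14.6% of all. With lists of equal length the share was 5.06% in the gene lists and 5.08% (87 of 1712) of all sites. None of the counts was tested, and small lists move by many percent with 1 site. Leaving out 1 peak list moved the member count of 19 of the 20 gene lists by over 1.5 times, in 85 of 180 such counts, so the share of a single gene list is not stable.

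The autophagy list held 4 members among 15 sites (26.7%). They were Sh3glb1, Atg3, which conjugates LC3 to lipid, Optn, a receptor of selective autophagy, and Plekhm1, which tethers autophagosomes to lysosomes. Plekhm1 scored 74.7, 38.4 and 63.1 in the Model lists and 57.8, 46.5 and 26.4 in the Control lists. Optn scored 79.3 and 64.3 in Model replicates 1 and 3 and 50.5 and 23.1 in Control replicates 1 and 2. Atg3 scored 33.3 and 64.8 in Model replicates 1 and 3 and 109 and 29.1 in Control replicates 1 and 3. With lists of equal length 1 autophagy site was left. The count was 2 without Model replicate 1, Model replicate 3 or Control replicate 1, and 7 without SYD replicate 3. Among mTOR, TFEB family and lysosome genes 1 of 14 sites was a member, in Fnip2, a partner of folliculin, with 70.9, 24.8 and 53.7 in the Model lists and 33.6 and 20.2 in Control replicates 2 and 3. Of 18 sites in m6A writers, erasers and readers 1 was a member, in Eif3a, which the list held as a subunit of an m6A-binding initiation factor.

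Translation and ribosome biogenesis held 10 members among 36 sites (27.8%), in Eif3d, Nop14, Pes1, Polr1a, Rrp1 and Sars. Pes1, a nucleolar factor of the large ribosomal subunit, scored 33.0 and 25.1 in Model replicates 1 and 3 and 106, 32.3 and 49.7 in the Control lists. The 10 sites came from 6 genes, 4 of which had 2 members each, so they are not independent. The count was 4 with lists of equal length, 4 without Model replicate 1 or Model replicate 3, 6 without Model replicate 2, 5 without Control replicate 1 and 6 without Control replicate 2. In the deposited KEGG annotation, ribosome biogenesis held 3 of 19 sites (15.8%), near the 14.6% of all. RNA splicing, helicases and decay held 10 of 60 (16.7%), in Clasrp, Ddx23, Ddx27, Mbnl1, Rbm25, Rbm33, Rbm5 and Tnrc6a, and the KEGG spliceosome, with Crnkl1 and Cwc15, held 7 of 60 (11.7%). Clasrp, a serine- and arginine-rich partner of CLK4, scored 40.5, 60.2 and 108 in the Model lists and 38.7 and 68.9 in Control replicates 2 and 3. Rbm33 encodes an RNA-binding protein. At 1 of its 2 members the Model scores were 20.1 and 23.7 in replicates 1 and 3. The Control scores there were 239 and 125 in replicates 1 and 3. Scores of its other member are not given here. Model and Control folds, compared by limma over sites of at least 2 lists per group, gave 0 calls. Both Rbm25 and Rbm25l1, a near namesake, held members, and reads of such copies can be split between them. Chromatin genes held 16 of 93 (17.2%), in Arid2, Asxl1, Brd3, Chd3, Chd6, Chd9, Crebbp, Dnmt1, Ep400, Kdm2b, Phf21a, Setd1a, Setd2, Smarcc1 and Zmynd8. Ubiquitin ligases and deubiquitinases held 11 of 54 (20.4%), among them Cbl, Cul1, Huwe1, Rnf168 and Usp34. With 1 peak list left out the counts ran between 4 and 18 for splicing, 6 and 21 for chromatin, and 5 and 17 for ubiquitin genes, lowest without Model replicate 3 for splicing and ubiquitin genes and without Model replicate 1 for chromatin.

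Genes of muscle structure and of the extracellular matrix held few members. Muscle structure had 1 of 26 sites (3.85%), in Myh4, while 24 of the 26 were in at least 2 SYD lists, and extracellular matrix and TGF-β genes had 2 of 46 (4.35%), in Col5a1 and Timp2. The sites of both lists ranked high in Model and Control, with median percentiles of 90.6 and 71.0. With 1 peak list left out the counts ran between 1 and 2 for muscle structure, highest without SYD replicate 1, and between 1 and 5 for matrix genes, highest without SYD replicate 3. Hypertrophy, adrenergic and calcium signaling had 2 of 20 sites (10.0%), and the KEGG pathway of adrenergic signaling in cardiomyocytes 6 of 43 (14.0%), against 14.6% of all sites. The 2 sites of the hypertrophy list were in Adcy9, an adenylyl cyclase, with 44.6, 23.0 and 40.7 in the Model lists and 50.0, 37.5 and 28.2 in the Control lists, and in Prkca, protein kinase C alpha, with 24.8 and 23.6 in Model replicates 1 and 2 and 57.4 and 22.6 in Control replicates 1 and 3. Their highest score was 57.4. Notch and Wnt genes had 4 of 37, among them sites in Amotl1 and in Wwtr1, which encodes the YAP paralog TAZ and scored 39.5, 27.3 and 82.9 in the Model lists and 26.7 and 20.5 in Control replicates 1 and 2.

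Stress and immediate early genes came next. Nfe2l2 (NRF2), the regulator of antioxidant genes, scored 43.2, 50.3 and 20.8 in the Model lists and 36.9 and 28.6 in Control replicates 1 and 2, and its target Hmox1, heme oxygenase 1, scored 26.3, 57.9 and 74.7 in the Model lists and 165 and 27.9 in Control replicates 1 and 2. They were 2 of 11 sites (18.2%) of the stress list. Myc scored 39.6, 38.8 and 25.6 in the Model lists and 51.1 and 67.5 in Control replicates 1 and 3, Ksr1, a scaffold of the ERK cascade, scored 38.7, 33.5 and 70.5 in the Model lists and 155, 20.3 and 91.8 in the Control lists, and Map3k4 scored 45.0 and 36.7 in Model replicates 1 and 3 and 203 and 49.3 in Control replicates 1 and 3. With Map3k14 these were 4 of 28 sites (14.3%) of the immediate early and MAPK list. Lmnb1, lamin B1, scored 128, 22.1 and 63.6 in the Model lists and 168, 30.7 and 62.9 in the Control lists among 3 of 18 sites (16.7%) of the nuclear envelope list. Pcnt, pericentrin, scored 97.5, 90.7 and 72.0 in the Model lists and 45.7 and 164 in Control replicates 1 and 3 among 4 of 47 (8.51%) of the centrosome list. Scd, stearoyl-CoA desaturase, scored 25.4 and 52.3 in Model replicates 1 and 3 and 49.5 and 28.4 in Control replicates 1 and 3 and with Ppargc1b made 2 of 10 (20%) of the lipid list. Vesicle trafficking had 4 of 58 (6.90%), which became 12 members without SYD replicate 2 or SYD replicate 3, 7 without SYD replicate 1, 2 without Model replicate 2 or Control replicate 3 and 1 without Model replicate 3. Growth factors had 1 of 8 (12.5%) in Hdgf, the cell cycle list 1 of 11 (9.09%) in Incenp, and apoptosis and NF-κB 2 of 7 (28.6%) in Tnfaip3 and Tnip1, whose product binds A20.

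**Figure D5:**
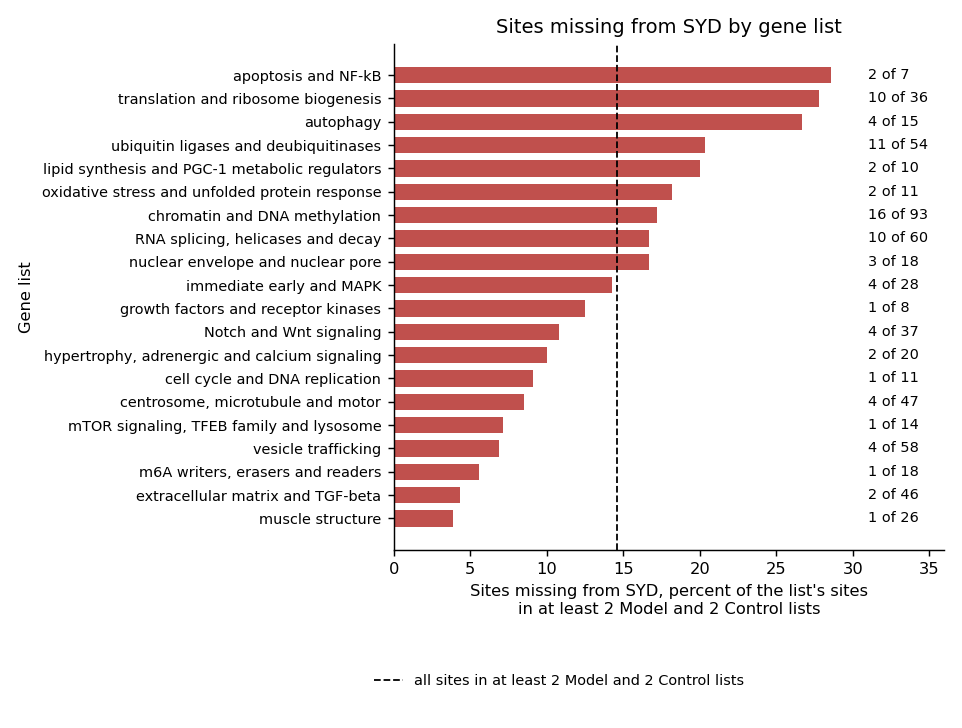
Share of each gene list's sites in at least 2 Model and 2 Control lists that were missing from SYD (bars, percent, with counts at the right), with the share of 14.6% over all such sites as a dashed line. Shares run between 3.85% for muscle structure and 28.6% (2 of 7) for apoptosis and NF-κB, and several lists rest on few sites.

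Phenylephrine against no treatment is a contrast in which the rule treats both groups alike, and for it fold enrichment could be compared at the 1424 sites held by all 6 Model and Control lists. Sites that any of the 6 lists lacked were left out of this fit, so peaks gained or lost between the groups were not compared. By limma on the median-centred log2 fold, no site passed an adjusted p of 0.05 in either direction (0%), and the lowest adjusted p was 0.704. At an unadjusted p of 0.05, 23 sites were higher and 31 lower in Model. Of the 55 members, none passed, with 0 higher and 1 lower at the unadjusted level. The median log2 difference was 0.05 over the members, 31 of which were above 0, and 0.01 over all sites, with 736 of 1424 above 0. A member had a median standard error of 0.26.

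Hdgf was the member with the lower unadjusted value. Its folds were 10.8, 6.87 and 7.77 in the Model lists and 13.6, 11.6 and 11.2 in the Control lists, all Model values below all Control values. The log2 difference of Model minus Control was -0.73 with a standard error of 0.25 and a limma adjusted p of 0.831. Rnf168, a ubiquitin ligase of the DNA damage response, had folds of 20.7, 7.88 and 20.6 in the Model lists and 9.13, 6.26 and 11.2 in the Control lists and a difference of 0.61, and Ccdc112 one of 0.51, in both cases short of the threshold. After centring, 1 of the 55 members, Esf1, had all Model values above all Control values, against 3.23% of all sites, and 3 had all below, against 3.93%.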

How the data were processed

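MeRIP-seq reads of 18 samples (IP and input libraries of 9 replicates) were trimmed by the authors with cutadapt 1.9.3, aligned with HISAT2 2.0.4 to rn6 and used to call peaks per replicate with MACS, of which those on mRNA were kept. The deposited lists hold 32961 peaks, each with the authors' MACS score (10 times the negative log10 p) and the deposited ratio of IP over input, the fold enrichment. The authors compared groups with diffReps on reads, which was not repeated.

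Merging peaks that shared 1 base or more gave 9022 sites (Python 3.11.15, pandas 2.3.3). Where a list had several peaks in a site the highest score was used. Model and Control folds were compared with limma 3.58.1 in R 4.3.3 on log2 values centred on each list's median, with Benjamini-Hochberg adjustment over all sites fitted. The limma code was also run on simulated data with the same spread at every site. Real sites differ in spread, so that run does not show what difference these lists could have revealed. Score and presence of the members were described without a test, since they chose the members. The named genes were the 20 members of all 6 Model and Control lists with the highest lowest percentile, members of 20 gene lists, genes with 2 or more members, genes named by the study and members past the threshold, a few of which are not reported here. The members and the gene lists were chosen with earlier results of these data known. Alternatives covered score limits, list length, overlap, presence rules, centring, the replicate number as a block and leaving out each list. Site sequences, motifs and transcript regions were not analysed here.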

Additional observations from a re-analysis of the deposited data

How the results depend on the processing

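The number of sites missing from SYD was 405 and became 87 with lists of equal length. It was 49 with a score of at least 50 asked of Model and Control peaks alone. Asking for all 3 Model and all 3 Control lists gave 55, and allowing up to 1 SYD list gave 949. With genes in place of sites, 243 of 2137 genes met the rule. Of these, 198 were among the 375 genes with a member. A score of at least 50 in all 9 lists gave 330 sites, of which 49 were among the 405, and at that threshold SYD lists lose weak peaks too. An overlap of at least 50% gave 405, and counting a SYD peak within 200 bases as present gave 402. Leaving out 1 list gave 162 to 617 sites, where fewer lists make the rule stricter for Model and Control and looser for SYD. The share of genes with another site in SYD was 47.2%, 53.0% with lists of equal length and 41.1% to 50.9% with 1 list left out. The share of sites of the gene lists that were members was 13.8%, 5.06% with lists of equal length and 8.78% to 20.3% with 1 list left out, lowest without Control replicate 1. The median percentile of the members was 41.3 by score or by fold and 40.1 to 45.4 with 1 list left out. Over the sites that the other rules select, a choice made after seeing the data, it was 68.3 with a score of at least 50, 62.0 with lists of equal length, 64.7 with that score asked of Model and Control alone, 49.5 with all 6 lists and 46.5 with up to 1 SYD list. In all 16 alternatives on sites, 20 of the 405 stayed members: Arid3a, Cd248, Ddx27, Esf1, Fam193a, Gpatch4, Hdgf, Lmnb1, Myh4, Odf2, Phf21a, Rrp1, Sars, Scrib, Sh3glb1, Slk, Sltm, Stk39, Svil and Tprn. Model against Control called 0 sites by limma in every alternative run. Without centring, the median log2 difference of all sites was 0.20, and 64 were higher and 7 lower at an unadjusted p of 0.05. With the replicate number as a block 0 sites were called and the lowest adjusted p was 0.416. Numbers were not taken to pair the samples, since same-numbered lists correlated by 0.22, 0.12 and 0.09, although every list correlated best with its own number. Depth is unknown, so no counting error can be given.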

Other observations

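Beyond the gene lists, the deposited files name KEGG pathways for 952 of the 2778 sites held by at least 2 Model and 2 Control lists (34.3%), in 257 pathways, and the pathways named here were chosen after their values were seen and were not tested. NF-κB signaling held 6 members among 11 such sites (54.5%), against 14.6% over all, the highest share among the 77 pathways with at least 3 members. These 11 sites had a median percentile of 43.5 in Model and Control. Of all sites with a percentile of 41.5 to 56.1, 22.5% were members, and of those in the class below, 37.1%. Besides Tnfaip3 the members lay in Icam1, an adhesion molecule for leukocytes, Map3k14 (NIK), the kinase of the noncanonical branch, Parp1, a poly(ADP-ribose) polymerase, and Erc1, a scaffold of the IκB kinase complex. Icam1 scored 43.7 and 31.3 in Model replicates 1 and 3 and 54.6 and 49.6 in Control replicates 1 and 2. Map3k14 scored 31.1 and 38.4 in Model replicates 1 and 3 and 89.3 and 96.3 in Control replicates 1 and 2. Parp1 scored 29.1 and 26.6 in Model replicates 1 and 2 and 43.9 and 31.8 in Control replicates 1 and 3. Only Tnfaip3 and 1 of the 2 Erc1 members were in all 6 lists, and the 6 members lay in 5 genes. Icam1, Map3k14, Parp1 and 1 Erc1 site stayed members in 8 of the 16 alternatives on sites. The other Erc1 site stayed in 13 and Tnfaip3 in 14.

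Endocytosis held 10 of 59 sites (16.9%), among them 3 genes of the ESCRT-III membrane scission machinery, Chmp3, Chmp4bl1 and Chmp7. Hippo signaling held 8 of 39 (20.5%), including Scrib, a cell polarity scaffold, and Wwtr1. The cell cycle pathway held 8 of 36 (22.2%), with both Smc1a sites and Rad21, another cohesin subunit. Adrenergic signaling in cardiomyocytes held 6 of 43 sites (14.0%), among them sites in Adcy9, Cacnb2, Creb1 and Prkca.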
